A study of Mus musculus with 12 samples.

Results

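The genes described here encode the complement and coagulation proteins that the liver releases into plasma. They are 42 genes, chosen by name for that role from the 55385 features of the expression table, and all 42 were found, were protein-coding and reached a mean of at least 1 transcript per 1000000 (TPM). TPM counts a gene's reads per unit of its length and scales each sample to the same total, so levels can be compared between genes within a mouse. RNA-Seq was done on the livers of 12 male C57BL/6 mice that were 7 weeks old when adenovirus was injected and were killed 7 days later. The 4 Ad-Ctrl mice received the Lac control virus with empty pAdV5. The 4 Ad-shmGULL mice received a virus with a short hairpin against mGULL, a mouse liver lncRNA, together with pAdV5. The 4 Ad-shmGULL+hGULL mice received that hairpin virus and one expressing hGULL, the human lncRNA regarded as the functional counterpart of mGULL. All 12 mice therefore carried adenovirus at the same total dose, none was uninjected, and the vectors were not restricted to hepatocytes by a promoter named in the sources used here. The labels and the animal methods name an intravitreal injection, whereas the general virus methods name the retro-orbital route. The levels of mGULL and hGULL were not analysed here, so the knockdown and the rescue were taken from the labels.

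Hepatocytes make most of the plasma proteins of blood clotting and complement. Clotting is a cascade of serine proteases that ends with thrombin cutting fibrinogen into fibrin, held in check by antithrombin, the protein C system and plasmin. Complement is a parallel cascade, started by antibody through C1 or by sugars through mannose-binding lectins and their proteases, that cleaves C3 and then C5 and ends when C5b, C6, C7, C8 and C9 assemble a pore in a target membrane. Several of these genes, fibrinogen among them, are also acute phase genes, induced in hepatocytes by interleukin 6.

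The read depth of each mouse is unknown because each column sums to 1000000 TPM, and precision rests on the spread between the 4 mice of a group. Log2 values of mice in the same group correlated at 0.964 to 0.986. No member was among the 20 genes of highest mean TPM, 5 were among the highest 50, 18 among the highest 200 and 29 among the highest 500. One mouse stood apart for these genes: Ad-shmGULL replicate 1 had the lowest of all 12 values for 30 of the 42 members, with a median of -0.43 on the log2 scale against the Ad-Ctrl mean, whereas the medians of the other Ad-shmGULL mice were -0.21, -0.1 and -0.01. Ad-Ctrl replicate 1 was the lowest control for 26 members, with a median of -0.12. In a piece of whole liver, fewer hepatocytes and less RNA per hepatocyte cannot be told apart. The summed TPM of 5 hepatocyte markers (Alb, Apoa1, Ttr, Apob and Hnf4a) was 71497 to 106616 in Ad-Ctrl, 79264 to 91820 in Ad-shmGULL and 66427 to 79182 in Ad-shmGULL+hGULL. None of these markers was at 0 in any group, the knockdown and control ranges overlapped, and the rescue range lay below the knockdown range. Most of the sum was Alb, and the markers went different ways between knockdown and rescue. Mean TPM went from 59764 to 51119 for Alb, 10794 to 8122 for Ttr and 9160 to 9034 for Apoa1. It went from 3519 to 3974 for Apob and 484 to 542 for Hnf4a. The part that the share of hepatocytes plays in the results was not tested.

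The first comparison asked what knockdown of mGULL did to these genes. Of the 42 members, C8b and C9, which encode parts of the terminal complement pore, fell after knockdown at an adjusted p under 0.05 (limma on log2(TPM + 1), Benjamini-Hochberg over all 16378 tested genes), and 0 rose. An unadjusted P under 0.05 was found for 13 members and for 20.25% of all tested genes. At an adjusted p under 0.05, 0.794% of all tested genes were called lower and 2.44% were called higher. At the study's own threshold, unadjusted P under 0.05 and a difference of more than 0.5 on the log2 scale, 5 members were lower (Fgb, Masp1, C8a, C8b and C9), against 2.30% of all tested genes, and 0 were higher, against 5.35%. The 4 knockdown values lay entirely below the 4 control values for 3 members (Fgb, C1ra and C9), against 2.06% of all genes, and entirely above them for 0, against 6.93%. The estimated difference was below 0 for 37 of the 42 members, with a median of -0.18 and a range of -0.92 to 0.29, whereas 34.48% of all tested genes were below 0 and their median was 0.09. With Ad-shmGULL replicate 1 left out, 33 members were below 0 and the median was -0.1. With each mouse weighted by how closely it followed its group (array weights), 29 members were below 0 and 13 above. Their median was then -0.1, against 0.08 for all genes. The size of the difference did not follow the level of the gene across the members (Spearman's rho -0.08 over 42 genes measured in the same mice, given as a description).

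**Figure D1:**
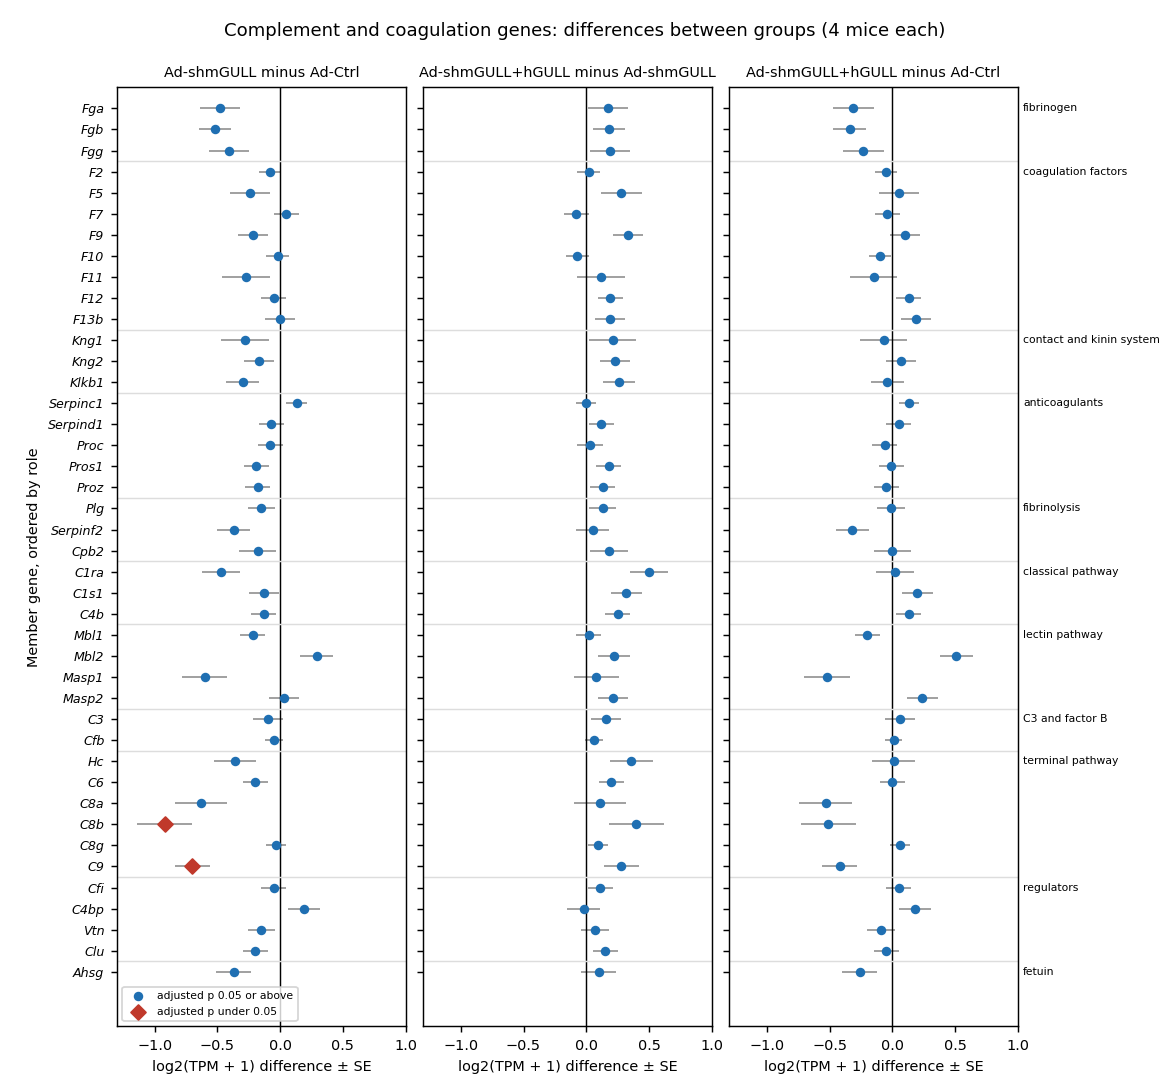
Differences in log2(TPM + 1) with their standard errors for the 42 member genes (rows, ordered by role) in the 3 comparisons (panels), with 4 mice in each group. Red diamonds mark the 2 genes with an adjusted p under 0.05, C8b at -0.92 and C9 at -0.70 after knockdown, and blue circles mark all others.

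Of the 6 terminal complement genes, C8b and C9 were called and C8a, C8g, C6 and Hc were not. C9, the subunit that polymerizes to form the wall of the pore, measured 521, 676, 689 and 593 TPM in the 4 Ad-Ctrl mice, 317, 328, 402 and 489 TPM in Ad-shmGULL, and 442, 466, 514 and 419.8 TPM in Ad-shmGULL+hGULL. Every knockdown mouse lay below every control mouse, and C9 fell by 0.70 ± 0.14 (SE) on the log2 scale, with an adjusted p of 0.0229 by limma. C8b, the beta chain of C8, measured 283, 484, 434 and 356 TPM in Ad-Ctrl, 148, 159, 247 and 285 TPM in Ad-shmGULL, and 233, 263, 321 and 257 TPM in Ad-shmGULL+hGULL. The highest knockdown mouse was level with the lowest control, Ad-Ctrl replicate 1, and the other 3 knockdown mice lay below all controls. C8b fell by 0.92 ± 0.22 with an adjusted p of 0.0421 by limma. Over 23 alternative settings the adjusted p of C9 ran from 0.0124 to 0.0897 and that of C8b from 0.0222 to 0.129, with the differences between -0.83 and -0.56 for C9 and between -1.08 and -0.70 for C8b. Leaving out any one of Ad-Ctrl replicates 2, 3 and 4 or Ad-shmGULL replicate 2 ended both calls, with adjusted p-values by limma of 0.0544 to 0.0742 for C9 and 0.0755 to 0.121 for C8b, and the call for C8b also ended without Ad-shmGULL replicate 1 (0.0775) or any one rescue mouse (0.0557 to 0.0632). Both calls also ended with no filter on low genes (0.0518 for C9 and 0.0915 for C8b, adjusted p by limma) and with only the 2 groups in the fit (0.0897 and 0.129).

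The other 2 chains of C8 are encoded apart from each other. C8a, the alpha chain, measured 329.9, 579, 602 and 504 TPM in Ad-Ctrl, 274, 243, 403 and 371 TPM in Ad-shmGULL, and 292, 311, 406 and 362 TPM in Ad-shmGULL+hGULL. Ad-Ctrl replicate 1 lay within the range of the knockdown mice and the other 3 controls lay above it. The difference was -0.63 ± 0.21 with an adjusted p of 0.106 by limma, and without Ad-Ctrl replicate 1 it was -0.83 with an adjusted p of 0.0255 (0.0255 to 0.254 over the alternatives). C8g, the small lipocalin-like gamma chain, was added after its values were seen: it measured 365 ± 15.4 TPM (SD, n = 4) in Ad-Ctrl, 359 ± 38.3 in Ad-shmGULL and 381 ± 8.64 in Ad-shmGULL+hGULL, and its difference after knockdown was -0.03 ± 0.08. In the RefSeq annotation of GRCm38.p6, C8b (chr4:104766317-104804548) and C8a (chr4:104815679-104876487) are neighbours on opposite strands, C8g lies on another chromosome (chr2:25498650-25501777), and C9 lies at chr15:6445346-6498825. Hc, which encodes complement C5, measured 549.7, 642, 781 and 740.2 TPM in Ad-Ctrl, 362, 596, 526 and 664 TPM in Ad-shmGULL, and 656, 695, 679.9 and 670.0 TPM in Ad-shmGULL+hGULL. The lowest Hc value was again Ad-shmGULL replicate 1, the groups overlapped, and the difference after knockdown was -0.36 ± 0.17. C6 had 327 ± 22.9 TPM in Ad-Ctrl and 286 ± 39.1 in Ad-shmGULL, a difference of -0.20 ± 0.10 that did not pass.

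Bases just before the annotated start of C8b and C9 are shown because these are the genes that were called. They come from RefSeq on GRCm38.p6 and read 5′ to 3′ on the strand of the gene, with capitals for a TTGCNNAA site of the C/EBP type (TTNNGCAA on the other strand), the family of liver leucine zipper factors.
C8b, chr4:104766167-104766316, plus strand: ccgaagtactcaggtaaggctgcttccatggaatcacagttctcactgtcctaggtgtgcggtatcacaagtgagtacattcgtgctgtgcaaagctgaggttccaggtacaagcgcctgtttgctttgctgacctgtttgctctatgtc
C9, chr15:6445196-6445345, plus strand: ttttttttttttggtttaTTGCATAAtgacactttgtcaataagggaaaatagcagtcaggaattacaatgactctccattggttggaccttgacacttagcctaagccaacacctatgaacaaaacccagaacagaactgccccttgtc
C9 held a C/EBP-type match that begins at position -132 from the start, and C8b held none in the 250 bases searched. These are matches of letters, and nothing was measured at them.

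All 3 fibrinogen genes had lower means after knockdown, and none passed the adjusted threshold. Fga, the alpha chain, measured 2568, 4003, 3743 and 3891 TPM in Ad-Ctrl, 2045, 2333, 2819.8 and 2960.3 TPM in Ad-shmGULL, and 2859.7, 2520.2, 2887 and 3034 TPM in Ad-shmGULL+hGULL. Fgb, the beta chain, measured 1702, 2221, 2099.7 and 2092 TPM in Ad-Ctrl, 1195, 1252, 1667 and 1593 TPM in Ad-shmGULL, and 1587, 1470.0, 1711 and 1634 TPM in Ad-shmGULL+hGULL. Fgg, the gamma chain, measured 2155, 3209, 3089.8 and 3148 TPM in Ad-Ctrl, 1619, 2125, 2438 and 2546 TPM in Ad-shmGULL, and 2498, 2242, 2481 and 2583 TPM in Ad-shmGULL+hGULL. For Fgb the knockdown mice lay below every control, and for Fga and Fgg they lay below 3 of the controls, Ad-Ctrl replicate 1 being the exception. The differences were -0.48 ± 0.16 for Fga, -0.52 ± 0.13 for Fgb and -0.41 ± 0.16 for Fgg, with adjusted p-values by limma of 0.121, 0.0501 and 0.177. Without Ad-Ctrl replicate 1, Fga (-0.63, adjusted p 0.0286 by limma) and Fgb (-0.60, 0.0258) were called, and Fgb was called in 8 of the 23 alternatives, including both rescalings and quantile normalization. Over all alternatives their adjusted p ran from 0.0286 to 0.281 and from 0.0252 to 0.166. The ratio of Fga to Fgb was 1.74 ± 0.157 in Ad-Ctrl, 1.78 ± 0.0922 in Ad-shmGULL and 1.77 ± 0.0779 in Ad-shmGULL+hGULL (SD, n = 4), that of Fgg to Fgb was 1.42 ± 0.107, 1.53 ± 0.150 and 1.53 ± 0.0599, and the ranges overlapped for both.

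The fibrinogen genes lie side by side in the order Fgg (chr3:83007724-83015056), Fga (chr3:83026153-83033627) and Fgb (chr3:83042246-83049863, on the opposite strand) in GRCm38.p6, and their upstream bases are shown because their products form a single protein and all 3 means were lower after knockdown. Capitals mark the same motif as above.
Fga, chr3:83026003-83026152, plus strand: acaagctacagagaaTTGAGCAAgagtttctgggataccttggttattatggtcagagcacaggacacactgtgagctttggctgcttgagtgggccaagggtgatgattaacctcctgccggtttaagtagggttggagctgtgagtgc
Fgb, chr3:83049864-83050013, minus strand: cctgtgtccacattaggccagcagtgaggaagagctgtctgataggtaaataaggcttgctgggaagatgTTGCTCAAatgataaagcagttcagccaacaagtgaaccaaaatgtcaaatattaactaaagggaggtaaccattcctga
Fgg, chr3:83007574-83007723, plus strand: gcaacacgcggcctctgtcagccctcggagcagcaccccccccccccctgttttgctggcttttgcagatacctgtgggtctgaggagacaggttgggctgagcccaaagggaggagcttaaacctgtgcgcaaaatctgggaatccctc
Fga had a C/EBP-type match beginning at -135, Fgb had one at -80, and Fgg had none in the 250 bases searched. A promoter sequence was available for 34 of the 42 members. TTGCNNAA was found in 10 of these 34 genes (29.4%; Ahsg, C1s1, C3, C9, F11, F9, Fga, Fgb, Klkb1 and Kng2) and in 9.56% of all 32851 promoters in the table. The letters CTGGGAA, a STAT-type site, were found in 5 members (14.7%; C1ra, F9, Fgb, Fgg and Masp2) against 9.1% of all promoters, and TGACG, the half-site bound by CREB, in 5 (14.7%; C4bp, Cpb2, F2, F9 and Masp2) against 17.8%. The motifs were searched on both strands of the 250 upstream bases. Members were counted by gene (36 promoter entries for 34 genes) and all promoters by entry, so the paired percentages have unlike units. The background was not limited to genes expressed in liver. The genes with a motif include both called and flat members, such as C9 at -0.70 and C3 at -0.10 after knockdown for TTGCNNAA.

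**Figure D2:**
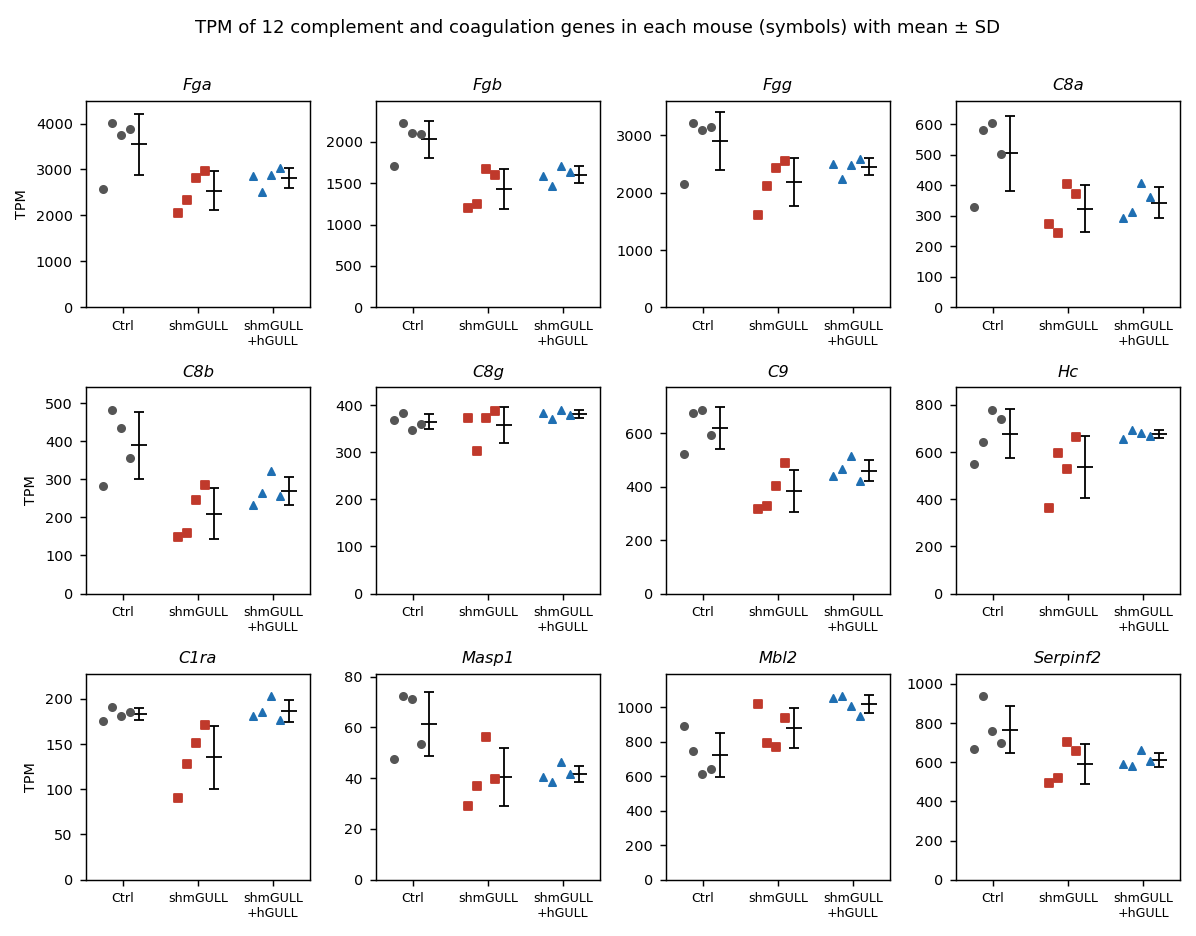
TPM of 12 member genes in each of the 12 mice, by group (circles, Ad-Ctrl; squares, Ad-shmGULL; triangles, Ad-shmGULL+hGULL), with the mean and SD of 4 mice. C9 lies between 317 and 489 TPM in Ad-shmGULL and between 521 and 689 TPM in Ad-Ctrl, whereas C8g overlaps in all 3 groups.

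None of the 8 coagulation factor genes was called after knockdown in limma or had an unadjusted P under 0.05, and their differences ran from -0.27 to 0.05. F2, which encodes prothrombin, had 867.5 ± 72 TPM in Ad-Ctrl and 822 ± 66.2 in Ad-shmGULL, and F10 had 304 ± 36.0 and 298 ± 16.3. F7, F12 and F13b, which start the extrinsic pathway, start the contact pathway and carry the fibrin crosslinking enzyme, differed by 0.05, -0.05 and 0. The differences furthest from 0 in this role were -0.24 ± 0.16 for F5, a cofactor of the prothrombin-cleaving complex, -0.27 ± 0.19 for F11 and -0.22 ± 0.12 for F9. Ad-shmGULL replicate 1 was the lowest of all mice for these 3 genes, with 219 TPM of F5 against 317 to 413 in the other knockdown mice, 56.2 of F11 against 83.3 to 118.9, and 138 of F9 against 175 to 209. The contact and kinin genes Kng1, Kng2 and Klkb1, for the kininogens and plasma kallikrein, differed by -0.28, -0.17 and -0.30, and none passed in limma, with an unadjusted P under 0.05 for 1 of them, Klkb1. Kng1 and Kng2 are close copies, so reads shared between them leave each value uncertain.

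The inhibitors of clotting were close to control. Serpinc1, which encodes antithrombin, had 489.5 ± 27.1 TPM in Ad-Ctrl and 537 ± 51.9 in Ad-shmGULL, a difference of 0.13 ± 0.08. Serpind1, for heparin cofactor II, and Proc, for protein C, differed by -0.07 and -0.08, and Pros1 and Proz, for proteins S and Z, by -0.19 and -0.18, with SE of 0.10 for all 4. Of the 3 fibrinolysis genes, plasminogen (Plg) differed by -0.15 ± 0.11 and Cpb2, whose product protects fibrin clots from plasmin, by -0.18 ± 0.15. Serpinf2, which encodes the main plasmin inhibitor and was singled out after its values were seen, measured 669.6, 939.8, 761 and 697 TPM in Ad-Ctrl, 496, 518, 703 and 655 TPM in Ad-shmGULL and 592, 579, 661 and 607 TPM in Ad-shmGULL+hGULL. The knockdown mice overlapped the controls, with a difference of -0.37 ± 0.13 and an adjusted p of 0.134 by limma, whereas the rescue mice all lay below the controls.

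In the early complement pathways the proteases C1ra and Masp1 had the lowest values after knockdown relative to control. C1ra, a serine protease of the C1 complex, measured 176, 191, 181 and 186 TPM in Ad-Ctrl, 90.5, 128, 151 and 171 TPM in Ad-shmGULL, and 181, 185, 203 and 176 TPM in Ad-shmGULL+hGULL. All 4 knockdown mice lay below all controls and below all rescue mice, over a range wider than that of the other groups, and the difference from control was -0.47 ± 0.15 with an adjusted p of 0.103 by limma. C1s1, its partner protease encoded next to it, differed by -0.13 ± 0.12 and C4b by -0.13 ± 0.10. C1ra, C1s1 and C4b have near-identical copies in the mouse genome, so their values are uncertain where reads are shared. Masp1, a protease of the lectin pathway, measured 47.5, 72.5, 71.3 and 53.5 TPM in Ad-Ctrl, 29.0, 36.9, 56.3 and 39.6 TPM in Ad-shmGULL, and 40.4, 38.4, 46.2 and 41.6 TPM in Ad-shmGULL+hGULL. The knockdown and control mice overlapped, and the difference was -0.60 ± 0.18 with an adjusted p of 0.0876 by limma (0.0202 to 0.224 over the alternatives, and 0.0468 without Ad-Ctrl replicate 1 or 0.0202 without Ad-shmGULL replicate 3). Masp2, the protease that cleaves C4 in the same pathway, differed by 0.03 ± 0.12.

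The 2 mannose-binding lectins had knockdown means on opposite sides of control. Mbl1 had 243 ± 16.7 TPM in Ad-Ctrl, 209 ± 25.6 in Ad-shmGULL and 211 ± 13.7 in Ad-shmGULL+hGULL. Mbl2, singled out after its values were seen, measured 889, 748, 610.2 and 639 TPM in Ad-Ctrl, 1018, 795, 768 and 937 TPM in Ad-shmGULL, and 1055, 1067, 1008 and 952 TPM in Ad-shmGULL+hGULL. The difference after knockdown was -0.22 ± 0.10 for Mbl1 and 0.29 ± 0.13 for Mbl2, and neither passed, with adjusted p-values by limma of 0.222 and 0.224. C3, the member of highest level, measured 4170.3, 4282, 4453 and 4546 TPM in Ad-Ctrl, 3306, 4739, 4130.2 and 4267 TPM in Ad-shmGULL, and 4229, 4799, 4455 and 4717 TPM in Ad-shmGULL+hGULL. The knockdown mice included both the lowest C3 value, in replicate 1, and one above all controls, and the difference was -0.10 ± 0.12. Cfb, which encodes factor B, had 51.3 ± 2.39 TPM in Ad-Ctrl and 49.6 ± 3.82 in Ad-shmGULL. Of the regulators, Vtn, for vitronectin, measured 2139, 2708, 2444 and 2447 TPM in Ad-Ctrl, 2272, 1899.9, 2163 and 2426 TPM in Ad-shmGULL, and 2196, 2239.9, 2381 and 2317 TPM in Ad-shmGULL+hGULL, with overlapping groups and a difference of -0.15 ± 0.11. Cfi, Clu and C4bp, which encode factor I, clusterin and the C4b-binding protein, differed by -0.05, -0.20 and 0.19. Ahsg, for the plasma glycoprotein fetuin-A, measured 4012, 5315, 5058 and 4561 TPM in Ad-Ctrl, 3003, 3463, 3675 and 4655 TPM in Ad-shmGULL, and 3796, 3766, 4134 and 3997 TPM in Ad-shmGULL+hGULL. The knockdown mice lay below all controls except Ad-shmGULL replicate 4, with a difference of -0.37 ± 0.14 and an adjusted p of 0.175 by limma.

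The second comparison asked what hGULL did in addition to the knockdown. No member was called between Ad-shmGULL+hGULL and Ad-shmGULL in limma at an adjusted p under 0.05, and 5 had an unadjusted P under 0.05 (C1ra, F9, C1s1, C4b and Hc). No gene of the liver was called either (0% in both directions), the smallest adjusted p over all genes was 0.117, and 10.73% of genes had an unadjusted P under 0.05. At the study's threshold 0 members differed, against 2.33% of all genes higher and 0.672% lower. The rescue mice lay entirely above the knockdown mice for 3 members (F9, C1ra and C4b), against 5.40% of all genes, and entirely below them for 0, against 0.983%. The differences were above 0 for 39 of 42 members with a median of 0.16, against 0.09 for all genes. After scaling by the median of ratios, 30 members were above 0 and 12 below. The largest differences were 0.50 ± 0.15 for C1ra (adjusted p 0.369 by limma), 0.40 ± 0.22 for C8b, 0.36 ± 0.17 for Hc and 0.33 ± 0.12 for F9. F9, which encodes the vitamin K dependent factor missing in haemophilia B, had 178 ± 30.0 TPM in Ad-shmGULL and 221 ± 8.90 in Ad-shmGULL+hGULL. C4b had 1009 ± 137 and 1194 ± 37.2 TPM. The knockdown mice spread more widely than the rescue mice for both genes, and Ad-shmGULL replicate 1 was the lowest mouse for both. With that mouse left out, 34 members were above 0 and the median was 0.07, against 0.06 for all genes.

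The third comparison, of Ad-shmGULL+hGULL with Ad-Ctrl, asked which differences remained when hGULL was present. It shares its control mice with the first comparison and its rescue mice with the second, so the 3 are not independent. No member was called in limma at an adjusted p under 0.05, against 2.12% of all genes higher and 0.0244% lower, and 7 members had an unadjusted P under 0.05, as did 25.33% of all genes. At the study's threshold 3 members were lower (Masp1, C8a and C8b), against 0.641% of all genes, and Mbl2 was higher, against 6.84%. The rescue mice lay entirely below the controls for 3 members (Serpinf2, Masp1 and C9), against 0.855% of all genes, and entirely above them for 5 (F12, F13b, Serpinc1, Mbl2 and Masp2), against 21.4%. The terminal pathway genes gave -0.53 ± 0.21 for C8a, -0.51 ± 0.22 for C8b and -0.42 ± 0.14 for C9, with adjusted p-values by limma of 0.143, 0.165 and 0.102, while C8g, C6 and Hc gave 0.06, 0 and 0.01. Masp1 gave -0.52 ± 0.18 and Fgb -0.34 ± 0.13, with adjusted p-values by limma of 0.113 and 0.14. Mbl2 gave 0.51 ± 0.13 with an adjusted p of 0.0547 by limma, and C1ra gave 0.02 ± 0.15. In this comparison 24 members were below 0 and 18 above, with a median of -0.01 against 0.17 for all genes, and 18.14% of all genes were below 0. Single mice moved this split. It was 18 below and 24 above without Ad-Ctrl replicate 3, 19 and 23 without Ad-Ctrl replicate 2, and 20 and 22 without Ad-shmGULL+hGULL replicate 1. Without Ad-Ctrl replicate 1 it was 26 and 16. The split changed with the scaling: 40 members were below 0 and 2 above under median-of-ratios scaling, 30 and 12 after quantile normalization, and 33 and 9 after rescaling without the 20 highest genes, with all-gene medians of 0, -0.01 and 0.09. The members' median relative to that of all genes was -0.19 as deposited, -0.21 under median-of-ratios scaling, -0.2 without the 20 highest genes, -0.07 after quantile normalization and -0.09 with no filter on low genes.

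Differences from control after knockdown and with hGULL are set side by side here for some members, by their values only. For C1ra and Hc the difference was -0.47 and -0.36 after knockdown and 0.02 and 0.01 with hGULL, each relative to control. Under median-of-ratios scaling the values with hGULL were -0.18 for C1ra and -0.2 for Hc. For C8a and Masp1 it was -0.63 and -0.60 after knockdown and -0.53 and -0.52 with hGULL. C8b, C9, Fga and Fgb gave -0.92, -0.70, -0.48 and -0.52 after knockdown and -0.51, -0.42, -0.31 and -0.34 with hGULL. The SE of these differences ran from 0.13 for Fgb to 0.22 for C8b, so no classes of genes are drawn from them. None of these genes passed the adjusted threshold between rescue and knockdown, so a return towards control was not shown for any of them.

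The summed TPM of the 42 members was 3.66% ± 0.318 of all TPM in Ad-Ctrl, 3.10% ± 0.380 in Ad-shmGULL and 3.41% ± 0.09997 in Ad-shmGULL+hGULL (SD, n = 4). The controls were at 3.20%, 3.92%, 3.80% and 3.70%, the knockdown mice at 2.62%, 3.02%, 3.22% and 3.52%, and the rescue mice at 3.31%, 3.33%, 3.52% and 3.47%, so the groups overlapped. The 6 highest members took 2.001% ± 0.223 of all TPM in Ad-Ctrl and 1.62% ± 0.211 in Ad-shmGULL, and the other members took 1.65% ± 0.1001 and 1.48% ± 0.169. Fibrinogen took 0.848% ± 0.139, 0.615% ± 0.106 and 0.688% ± 0.0448 in the 3 groups in the same order, and the terminal pathway took 0.288% ± 0.0381, 0.210% ± 0.0347 and 0.245% ± 0.0136. The classical pathway genes took 0.165% to 0.174% in Ad-Ctrl, 0.118% to 0.171% in Ad-shmGULL and 0.181% to 0.188% in Ad-shmGULL+hGULL, and the lectin pathway genes, mostly Mbl2, took 0.115% to 0.137%, 0.123% to 0.143% and 0.146% to 0.157%. In the TPM as deposited, the rescue mice lay above both other groups for these last 2 roles and for no other role. Of all tested genes, 21.4% lay entirely above control in rescue and 5.40% entirely above knockdown. These are shares of single genes in 1 comparison each, and the share above both groups at once was not counted. The sums by role were not recomputed under another scaling, so whether this separation holds under one is not known. The members' share and that of the most abundant transcripts did not follow the same order of groups: the 20 highest genes, none of them members, took 30.6% ± 1.602 in Ad-Ctrl, 29.2% ± 3.51 in Ad-shmGULL and 25.9% ± 0.869 in Ad-shmGULL+hGULL. The rescue mice were at 24.7% to 26.6%, below all controls at 29.4% to 32.9%, and the knockdown mice at 26.3% to 34.2% overlapped both. Ad-shmGULL replicate 1 had the lowest member share of all 12 mice and the highest share for the 20 highest genes (34.2%). Not all of these 20 encode plasma proteins: they include the noncoding RNAs Rn7sk (mean 48196 TPM) and Rn7s2 (9777.5). Gm26917 (31206), Gm42418 (11131.6) and Gm23935 (9547) are also among them. A list of other secreted liver proteins, Alb among them, took 15.55% in this mouse and 15.03% to 17.52% over the knockdown group. The share of the 20 highest genes is given with no test, since it was among the patterns known when the members were chosen. Since TPM values of a sample share one total, a lower share of the highest genes raises the values of the others, and its part in the rescue values was not tested apart from the scalings given above.

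**Figure D3:**
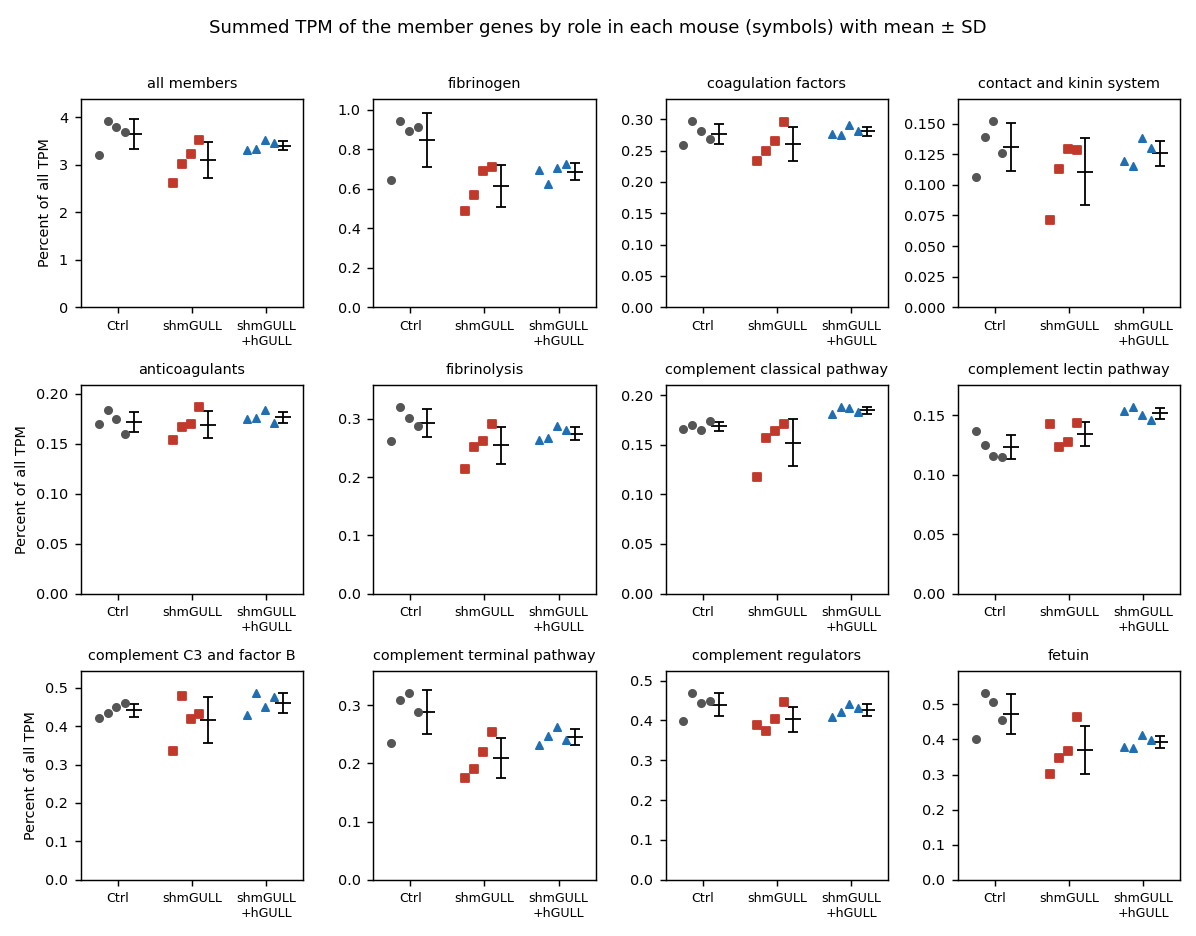
Summed TPM of the members as a percent of all TPM in each mouse, for all 42 members and for each role, with the mean and SD of 4 mice per group. The fibrinogen and terminal pathway means are lowest in Ad-shmGULL (0.615% and 0.210%). In the TPM as deposited, Ad-shmGULL+hGULL lies above both other groups for the classical and lectin pathways only. These sums were not recomputed under another scaling. Of all tested genes, 21.4% lie entirely above Ad-Ctrl and 5.40% entirely above Ad-shmGULL in that group.

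Ratios of 2 members within a mouse do not depend on how that mouse was scaled. The pairs were chosen after the values were seen, so the ratios are descriptions with no test. The ratio of C8b to C8g, whose products join in the same complex, was 0.769, 1.26, 1.25 and 0.988 in Ad-Ctrl, 0.398, 0.525, 0.661 and 0.735 in Ad-shmGULL, and 0.609, 0.711, 0.821 and 0.678 in Ad-shmGULL+hGULL. All knockdown mice lay below all controls, and the rescue mice overlapped both. The ratio of C9 to C6 was 1.76 to 2.03 in Ad-Ctrl, 1.16 to 1.63 in Ad-shmGULL and 1.30 to 1.59 in Ad-shmGULL+hGULL, and that of Fgb to F2 was 2.06 to 2.53, 1.42 to 1.92 and 1.81 to 1.98. Both ratios were lower than every control in all mice given the hairpin. The ratio of Masp1 to Masp2 was 0.228 to 0.384 in Ad-Ctrl and 0.148 to 0.195 in Ad-shmGULL+hGULL without overlap, and that of Mbl2 to Mbl1 was 2.33 to 4.01 and 4.15 to 5.33 without overlap. In Ad-shmGULL these ratios were 0.161 to 0.246 and 3.38 to 4.62, and both overlapped control. The ratios of C8a to C8g and of Hc to C6 overlapped in all comparisons.

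**Figure D4:**
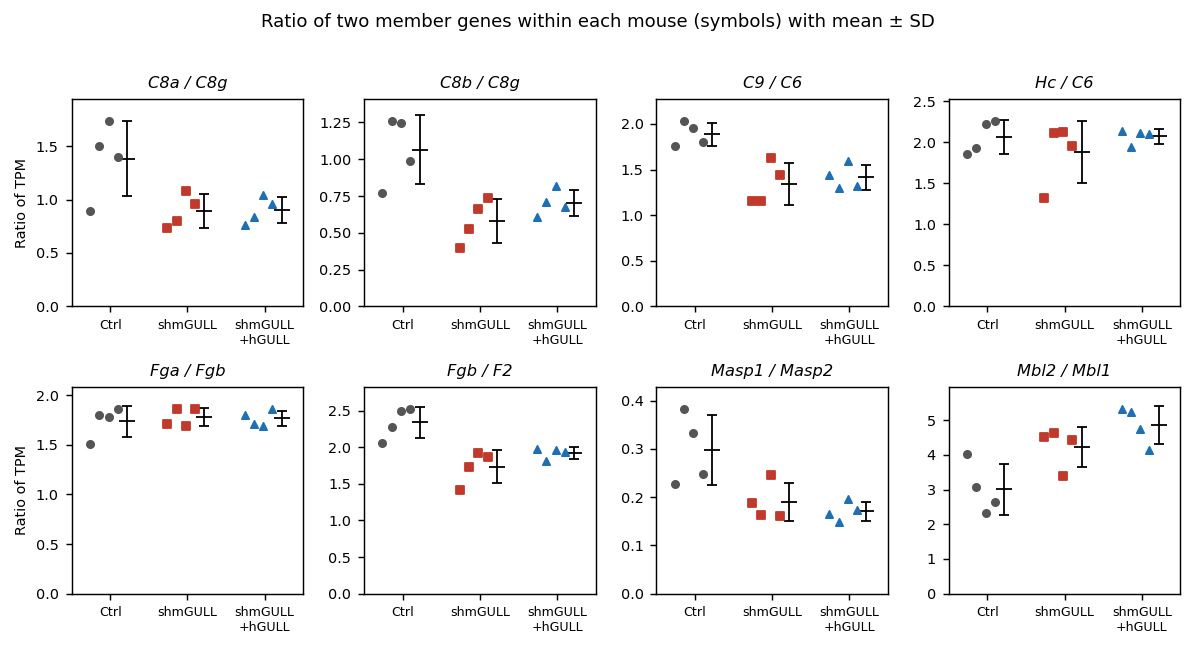
Ratio of the TPM of 2 members within each mouse, for 8 pairs, with the mean and SD of 4 mice per group. The ratio of C8b to C8g lies between 0.398 and 0.735 in Ad-shmGULL and between 0.769 and 1.26 in Ad-Ctrl, while the ratio of Fga to Fgb overlaps in all groups.

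Other genes of complement and haemostasis, including receptors, inhibitors and the vitamin K cycle, were counted beside the members. Of 53 listed, 45 were tested and 0 were called in limma at an adjusted p under 0.05 in any of the 3 comparisons, with 7, 7 and 6 at an unadjusted P under 0.05, beside 20.25%, 10.73% and 25.33% of all genes. Their median differences were 0.07 after knockdown, 0.06 for rescue against knockdown and 0.13 for rescue against control, beside 0.09, 0.09 and 0.17 for all genes. After knockdown 28 of the 45 were above 0 and 17 below. The knockdown mice lay entirely above the controls for 2 of the 45 (C1rl and Serpina5), against 6.93% of all genes. They lay entirely below for 2 (C4a and Serping1), against 2.06%. Differences ran from -0.72 for C4a to 1.07 for Serpina5, whose adjusted p was 0.115 by limma. Serpina5 was at a low level, with 0.3236 to 1.34 TPM in Ad-Ctrl. Ad-shmGULL replicate 2 was at 8.314 TPM and the other knockdown mice at 1.614 to 2.338. The genes that follow were singled out after their values were seen. Serping1, which encodes the C1 inhibitor, had 1192 ± 58.9 TPM in Ad-Ctrl, 981 ± 187 in Ad-shmGULL and 1231 ± 85.1 in Ad-shmGULL+hGULL. Its knockdown mice lay below both other groups, as those of C1ra did, but by little. They measured 704.3, 1049.6, 1052.1 and 1118.3 TPM, against 1143.0 in the lowest control and 1140.0 in the lowest rescue mouse. The difference from control was -0.3 ± 0.13 with an adjusted p of 0.221 by limma, and that of rescue from knockdown had 0.415. The rescue mice lay entirely above the knockdown mice for 4 of the 45, against 5.40% of all genes. Serpina10, for the protein Z-dependent protease inhibitor, differed by -0.45 ± 0.13 after knockdown (adjusted p 0.076 by limma). C4a, a close copy of C4b whose reads may be shared with it, had 43.3 ± 5.92, 26.6 ± 8.36 and 49.2 ± 12.7 TPM in the 3 groups, and its adjusted p after knockdown was 0.0891 by limma.

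Lower values after knockdown were not limited to complement and coagulation genes. Of 25 other secreted liver proteins tested, 20 were below 0 after knockdown with a median of -0.14. The 1 called, against 0.794% of all genes called lower, was Itih3, an inter-alpha-trypsin inhibitor heavy chain. It fell from 609.9 ± 78.9 to 303 ± 75.7 TPM (-1.03 ± 0.18, adjusted p 0.0125 by limma). Of 16 acute phase genes outside the member list, 14 were below 0 with a median of -0.33 and 0 were called. An unadjusted P under 0.05 was found for 5 of them, against 20.25% of all genes, among them Crp (-0.56, adjusted p 0.0501 by limma), whereas Saa3 was at 0.64 (0.0712). Hpx and Itih4 were in both lists, so the lists are not separate. Of 12 hepatocyte transcription factors, 6 were above 0 and 6 below after knockdown and 0 were called, with 4 at an unadjusted P under 0.05. Between control and rescue 1 of the 12 was called, Foxa1, which rose (0.52 ± 0.11, adjusted p 0.0414 by limma), against 2.12% of all genes called higher. Of the 6 genes of interleukin 6 signalling, 0 were called in any comparison. An unadjusted P under 0.05 was found for 0, 1 and 2 of them, beside 20.25%, 10.73% and 25.33% of all genes. Among 10 marker lists for liver cell types, the summed levels of every list overlapped between knockdown and control. All 6 sinusoidal endothelial markers had higher means after knockdown, none was at 0, and their sum was 103.9 to 182 TPM in Ad-Ctrl, 175 to 228 in Ad-shmGULL and 166 to 202 in Ad-shmGULL+hGULL. Only 34.48% of all tested genes were below 0 in that comparison. Means were also higher for all stellate markers but Dcn, and for all T and NK cell markers but Nkg7 and Gzma. Stab2 had 34.9 ± 6.72 TPM in Ad-Ctrl and 50.9 ± 7.31 in Ad-shmGULL, and Oit3 had 26.2 ± 6.24 and 37.7 ± 4.47. Both were without overlap, as were 6.93% of all genes in that direction. Of the 6 endothelial markers 1 was called higher, against 2.44% of all genes. The part of these markers in the members' lower values was not tested.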

How the data were processed

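The authors isolated total RNA from liver, made strand-specific Illumina TruSeq libraries, trimmed reads with fastp 0.23.2, checked them with FastQC 0.11.8, aligned them with HISAT2 2.2.1.0 to GRCm38.p6 and counted them on GENCODE VM24 genes. The submitters' processing notes also name featureCounts and Subread 2.0. The deposited values are TPM for 55385 features in 12 samples, grouped by the labels into 3 groups of 4 mice, and they carry no read depth, so no counting interval is given. That the labelled replicates are separate mice comes from the design. A total of 24575 features were at 0 in every sample.

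Values were analysed as log2(TPM + 1) in limma 3.58.1 (R 4.3.3) for the 16378 genes with a mean TPM of at least 1. One linear model held the 3 groups, with empirical Bayes variances, a mean-variance trend and Benjamini-Hochberg adjustment over all tested genes. Differences are on the log2(TPM + 1) scale, which understates changes of low genes. The fit was tested on simulated data before use. The planned permutation test of the summed member TPM is not given, since the members were chosen with results known. Promoters and gene positions are from RefSeq on GRCm38.p6, with 34 of 42 members matched in the promoter table. Figures were drawn with matplotlib 3.10.9.

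The members and lists were chosen with earlier results of these data known. Values in every mouse are given for members with an adjusted p under 0.05 in any comparison (at most 15), the 6 members with the highest mean TPM and the 3 with the largest difference in each comparison. Other pathway genes would have been named at an adjusted p under 0.05 (at most 8). None reached it, so those named were singled out after their values were seen. Alternatives covered the pseudocount, the filter, 4 other scalings, the fit, a replicate block and leaving out each mouse. Same-numbered mice did not deviate together.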

Additional observations from a re-analysis of the deposited data

Results flagged for a closer look

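One value among the 39 groups of 4 mice examined stood far from the others of its group. Fgg was at 2154.6 TPM in Ad-Ctrl replicate 1, while the other 3 controls lay between 3089.8 and 3208.6 TPM, so the gap to the nearest control was 0.887 of the whole range, beyond Dixon's 95% critical value. Chance flags about 1 in 20 groups.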

How the results depend on the processing

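The count of members called after knockdown, 2 as reported, depended on the processing. It was 3, with Fgb added, with a pseudocount of 0.1, a minimum mean of 5 TPM, quantile normalization, rescaling without the 20 highest genes or rescaling to protein-coding genes. It was 0 with no filter on low values and 0 with only the control and knockdown mice in the fit, 1 (C9) without the variance trend, 1 (C9) with array weights, and 0 to 6 with single mice left out. It was 6 without Ad-Ctrl replicate 1, 4 without Ad-shmGULL replicate 3, and 0 without Ad-Ctrl replicates 2, 3 or 4 or Ad-shmGULL replicate 2. With the replicate number as a block it was 4 (Fgb, C8b, C9 and Masp1), and 1 other pathway gene (Serpina10) was called, but the numbers do not pair the mice: correlations of same-numbered deviations ran from -0.24 to 0.15, and 4 of 12 mice correlated best with their own number. The block changed no other count of calls. Leaving out single mice gave 0 to 2 calls among the other pathway genes after knockdown. For rescue against control, the members called were 0 as reported, 1 with a minimum mean of 5 TPM (Mbl2), 4 with only these 2 groups fitted, 7 with array weights, and 0 to 2 with single mice left out, and the other pathway genes called were 1, 3, 4 and 0 to 3. For rescue against knockdown the count stayed at 0 in every alternative run.

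The summed TPM of rescue minus knockdown was 0.3105 percentage points as reported, 0.08943 with median-of-ratios scaling, 0.1652 after rescaling without the 20 highest genes, and 0.1515 to 0.4533 with single mice left out (0.1515 without Ad-shmGULL replicate 1, and 0.4533 without replicate 4, when the groups no longer overlapped). After a rescaling the sums were divided by the mean total over the mice, so these values are not shares of each mouse's own total. Rescue minus control was -0.2495 as reported, -0.7613 with median-of-ratios scaling, -0.4816 after rescaling without the 20 highest genes, -0.1143 without the 3 highest members, and -0.4017 to -0.1609 with single mice left out (-0.4017 without Ad-Ctrl replicate 1, again without overlap). Knockdown minus control, -0.56 as reported, kept its direction, with -0.8507 under median-of-ratios scaling and -0.3299 without the 3 highest members.

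Values near 0 changed sign in 25 cases, none of them called. After knockdown, C3 went to 0.03 with quantile normalization and ran from -0.17 to 0 with single mice left out (0 without Ad-shmGULL replicate 1). For rescue against knockdown, Ahsg went to -0.03 with array weights, Vtn to -0.03 with median-of-ratios scaling and 0 both without the 20 highest genes and without Ad-shmGULL replicate 2, C8a to -0.02 without that mouse, and Masp1 to -0.02, -0.01 and -0.06 with median-of-ratios scaling, quantile normalization and without Ad-shmGULL replicate 1. For rescue against control, median-of-ratios scaling, quantile normalization, rescaling without the 20 highest genes and rescaling to protein-coding genes gave -0.18, -0.11, -0.07 and -0.01 for C1ra and -0.2, -0.02, -0.09 and -0.02 for Hc, and the first of these and the rescaling without the 20 highest genes gave -0.14 and -0.03 for C3. Array weights gave -0.07 for Hc. Leaving out single mice gave -0.09 to 0.08 for Hc, with values of -0.02 and -0.01 among them, and -0.02 to 0.05 for C1ra. In rescue against knockdown it gave 0 to 0.12 for Vtn, -0.02 to 0.22 for C8a and -0.06 to 0.25 for Masp1. The causes were not tested. For the log2 differences of members named by the rule above, 763 values under the alternatives kept their direction and side of the threshold. Another 25 changed sign, 21 passed the threshold only under the alternative, and 19 passed it only as reported. Counts of calls and summed TPM were not among these. The depth of the libraries is unknown and sets a limit that could not be examined.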
